A study of Mus musculus with 12 samples.

Results

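Immediate early genes are the first genes a cell transcribes after a stimulus. They need no new protein for this, because the factors that switch them on, serum response factor with its ternary complex partners and CREB, already sit in the nucleus and are activated by kinases. Many encode transcription factors, such as the FOS and JUN subunits of AP-1, the EGR zinc finger proteins and the NR4A nuclear receptors, and others, such as the phosphatase DUSP1 and the RNA-binding protein ZFP36, shut the same response down. In macrophages they respond to growth factors, danger signals and mechanical stress, and enzymatic dissociation of a tissue is itself known to induce them.

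The genes described are Fos, Fosb, Jun, Junb, Egr1, Egr2, Nr4a1, Ier2, Dusp1 and Zfp36, 10 of the 55401 genes listed in each count table. They were picked by symbol, each symbol matched a single gene, and all 10 passed the filter on low counts in both tables. Levels are given as CPM, the count relative to the library total after scaling by trimmed mean of M-values (TMM), as mean ± SD of 3 libraries per group.

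The RNA came from tumor-associated macrophages (TAMs) sorted from subcutaneous B16-F10 melanoma, a mouse melanoma line. The methods define these cells as CD45+CD11b+Ly6C-Ly6G-F4/80+, whereas legends of the supplement write Ly6C+Ly6G+ or Ly6G-Ly6C+. The tumors were grown in C57BL/6-background mice that the methods give as female and 5 weeks old. All tumors were dissociated with collagenase IV and DNase I, and no group received a treatment. WT TAMs were labelled AMPKfl/fl and AMPK-KO TAMs AMPKfl/flLyz2cre/cre, with cre at the Lyz2 gene driving deletion in myeloid cells, and the methods place both at day 15. In the genotype labels of AMPK-KO, Lyz2 is spelled Lyz3 for replicate 2 and Lyz4 for replicate 3. Early-stage TAMs were taken at day 8 and late-stage TAMs at day 15. Both came from mice labelled WT, and these libraries stand in a table of their own. The labels do not say that the 3 replicates of a group came from separate mice, so that p-values measure the spread between these libraries, which may be technical in part.

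Total counts ranged from 71019494 to 84470374 over the 12 libraries, of which the 10 genes took 0.403 to 0.600%. Prkaa1, which encodes the AMPKα1 catalytic subunit, had 4535 to 5165 counts in WT and 3285 to 3467 in AMPK-KO TAMs (log2 fold change -0.60, adjusted p = 0.000226), so that it was lower but still present. Lyz2 did not separate these groups, with 671 to 975 counts in WT and 676 to 1088 in AMPK-KO libraries against 88212 to 249165 in the early- and late-stage libraries. Since by the labels only AMPK-KO mice carry cre at this gene, the low Lyz2 counts of the WT libraries leave in doubt whether they lack the insertion, and WT and AMPK-KO below mean the libraries so labelled. Summed counts of 4 Y-linked genes were 9229 to 12183 in WT and AMPK-KO libraries, 3435 to 4035 in early-stage and 0 to 4 in late-stage libraries, while Xist had 60 to 158 counts in WT, 0 to 8 in AMPK-KO, 13568 to 22094 in early-stage and 23982 to 41700 in late-stage libraries. Y-linked counts thus changed with stage. Xist was higher in every late-stage library, but the difference missed the threshold (log2 fold change 0.71, adjusted p = 0.0859). Stage and sex composition cannot be told apart. The Y-linked counts of the WT, AMPK-KO and early-stage libraries are not what female mice alone would give, and their source was not tested. Xist was also lower in AMPK-KO than in WT libraries (log2 fold change -4.79, adjusted p = 0.000918).

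Immediate early genes are compact. The 10 genes had a median span of 4698.5 bp and a median of 3.5 exons in their longest transcript, against 23342 bp and 9 exons for 14277 tested protein-coding genes, and 8 of the 10 (80.0%) were under 10 kb against 25.2%. Jun, a single exon on the minus strand of chromosome 4 (95049034 to 95052222, GRCm38), and Zfp36 on the minus strand of chromosome 7 (28376784 to 28380253) had spans of 3189 and 3470 bp. Egr2 lies on the plus strand of chromosome 10 (67535475 to 67542188), Fosb on the minus strand of chromosome 7 (19302696 to 19310051) and Nr4a1 on the plus strand of chromosome 15 (101254269 to 101274795).

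These 5 genes passed the test in a comparison, and the 150 bases upstream of their RefSeq transcription starts are shown (GRCm38.p6, 5′ to 3′ on the gene's strand). Egr2 has several starts, and the first of the windows that share the most matches is given. Known inputs of immediate early promoters can be read in these sequences except that of Jun, which held no exact match. Capitals mark matches on either strand to the CArG box bound by serum response factor, to TGACG, the core bound by CREB and ATF proteins, and to GCGNGGGCG, the site of EGR proteins.
Jun upstream window, chr4:95052223-95052372, minus strand: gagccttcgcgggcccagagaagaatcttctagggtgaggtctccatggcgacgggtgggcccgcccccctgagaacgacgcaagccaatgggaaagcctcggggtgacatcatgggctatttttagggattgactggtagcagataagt
Zfp36 upstream window, chr7:28379229-28379378, minus strand: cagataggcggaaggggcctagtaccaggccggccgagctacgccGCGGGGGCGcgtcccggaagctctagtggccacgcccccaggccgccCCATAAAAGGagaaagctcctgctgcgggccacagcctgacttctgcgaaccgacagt
Egr2 upstream window, chr10:67537719-67537868, plus strand: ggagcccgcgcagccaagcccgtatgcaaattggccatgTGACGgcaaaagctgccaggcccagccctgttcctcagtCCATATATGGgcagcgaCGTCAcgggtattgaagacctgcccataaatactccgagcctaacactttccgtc
Nr4a1 upstream window, chr15:101266696-101266845, plus strand: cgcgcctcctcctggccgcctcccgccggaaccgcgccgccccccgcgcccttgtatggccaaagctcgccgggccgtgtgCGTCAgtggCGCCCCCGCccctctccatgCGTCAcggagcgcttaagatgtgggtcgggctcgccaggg
Fosb upstream window, chr7:19310046-19310195, minus strand: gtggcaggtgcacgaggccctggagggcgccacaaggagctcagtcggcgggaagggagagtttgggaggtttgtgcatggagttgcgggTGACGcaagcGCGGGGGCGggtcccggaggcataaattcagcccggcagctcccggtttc

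Over the whole table windows (250 bases before to 50 after the start), the CArG box occurred in 2 of the 8 genes with an entry, Egr2 and Zfp36, and in 1.63% of 32851 promoters. TGACG occurred in 6 of the 8 (Dusp1, Egr2, Fos, Fosb, Junb and Nr4a1) and in 20.8% of promoters, and the full palindrome TGACGTCA, which contains TGACG on both strands, in Dusp1 and in 1.79%. The EGR site occurred in Fosb, Nr4a1 and Zfp36 and in 5.55% of promoters. The AP-1 site TGANTCA occurred in none of the 8 windows and in 7.81% of promoters, and TATAAA, searched on the gene's strand, in Fos and Junb and in 8.32%. The window of Jun held no exact match to these letters, and Egr2 was counted over all its windows. Only exact letters were searched, so variants such as the tgacatca printed for Jun were not counted. Sites farther from the start were not searched either, so a window without a match does not show that a gene lacks the site. Egr1 and Ier2 had no entry and are named only.

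Immediate early mRNAs are also short-lived, and ZFP36, also called tristetraprolin, promotes the decay of mRNAs with AU-rich elements in their 3′UTR. The nonamer TTATTTATT, its preferred type of site, occurred in the longest annotated 3′UTR of Fos, Dusp1 and Zfp36 itself, 3 of the 10 genes, against 7.88% of 14130 tested genes. The sites are shown with the nonamer in capitals (GRCm38, 5′ to 3′, DNA letters).
Dusp1 site, chr17:26506161-26506185, minus strand: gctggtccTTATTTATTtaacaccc
Dusp1 site, chr17:26505872-26505896, minus strand: ttttacctTTATTTATTtttgtgta
Fos site, chr12:85477105-85477129, plus strand: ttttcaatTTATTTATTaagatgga
Zfp36 site, chr7:28376953-28376977, minus strand: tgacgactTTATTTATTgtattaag

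The shorter pentamer ATTTA occurred 4 times each in Dusp1, Fos and Jun, 3 times each in Egr2, Nr4a1 and Zfp36, 2 times in Egr1 and Junb, 1 time in Fosb and 0 times in Ier2. At least 3 pentamers were present in 37.1% of the tested genes.

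Per kilobase of exon, the 10 genes covered a wide range of levels, and their order was the same in every group except that Fosb stood above Nr4a1 in late-stage TAMs (48.8 against 35.5 CPM per kb). In WT TAMs, Fos stood highest at 465 ± 10.9 CPM per kb (SD, n = 3), with only 0.548% of the tested genes above its mean over both groups, followed by Junb at 382 ± 25.8, Dusp1 at 313 ± 3.17, Zfp36 at 290 ± 5.16 and Jun at 230 ± 1.79 CPM per kb. Ier2 (53.2 ± 6.50), Nr4a1 (38.6 ± 0.968), Fosb (36.1 ± 1.62), Egr1 (21.6 ± 0.642) and Egr2 (11.1 ± 0.750 CPM per kb) formed a lower tier. Among neighbours in this order, only Nr4a1 and Fosb had ranges of mean ± SD that met in WT TAMs. In early-stage TAMs the SDs were wider, with Junb at 335 ± 103, Dusp1 at 310 ± 50.2 and Zfp36 at 275 ± 62.0 CPM per kb overlapping each other. The plot of members by library shows the CPM values, not divided by length, behind these levels.

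**Figure D1:**
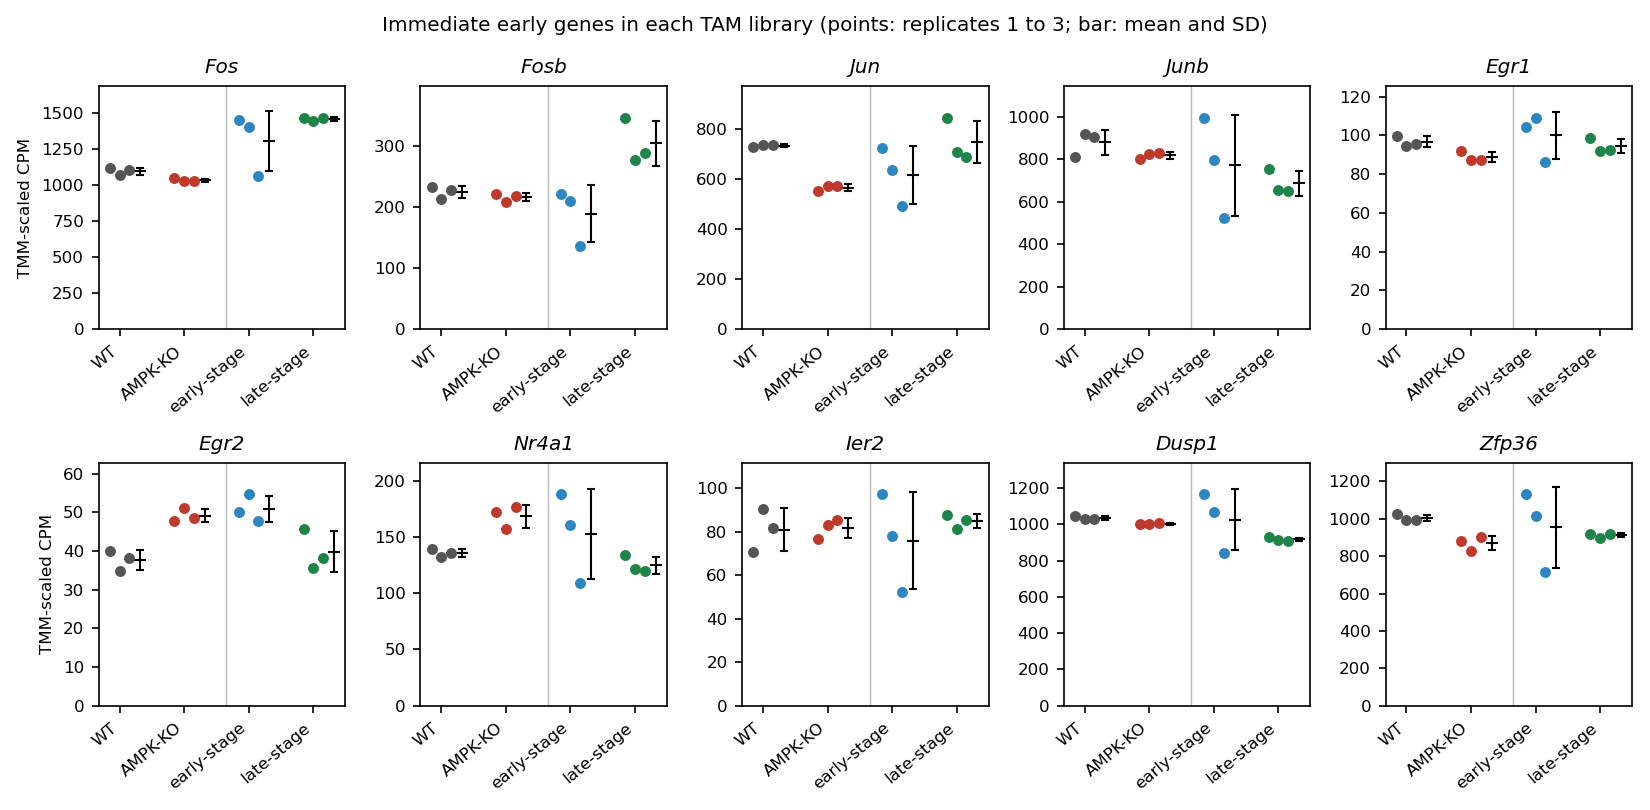
TMM-scaled CPM of each immediate early gene in the 12 libraries (vertical axes, from 0; horizontal axes, group), with points for replicates and bars for mean and SD of 3 libraries; the grey line separates the count tables. Jun and Zfp36 lie lower and Egr2 and Nr4a1 higher in AMPK-KO than in WT TAMs without overlap, and early-stage replicate 3 is the lowest early-stage point in all 10 panels.

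The first comparison set TAMs labelled AMPK-KO against TAMs labelled WT at day 15, to ask what AMPK does in these cells. Jun and Zfp36 fell and Egr2 and Nr4a1 rose in AMPK-KO TAMs, while Fos, Fosb, Junb, Egr1, Ier2 and Dusp1 did not pass the test. Thus 4 of the 10 genes had an adjusted p under 0.05, 2 in each direction, where 21.1% of 17532 genes passed (11.3% higher and 9.78% lower). Among genes above 50 CPM, where counts are more precise, 38.8% passed, so that the share of the 10 genes is near that of other well-expressed genes. No member changed by more than a log2 fold change of 1, a limit that 3.34% of genes exceeded together with the adjusted p.

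Among the AP-1 subunits, Jun, the main DNA-binding partner of the FOS proteins, measured 727, 735 and 738 CPM in the WT libraries and 551, 573 and 574 CPM in the AMPK-KO libraries. Every AMPK-KO library was below every WT library, by 22.8% on average (log2 fold change -0.37, SE 0.04, adjusted p = 9.06e-05). Fos, which can bind DNA only with a JUN partner, measured 1113, 1065 and 1104 CPM in WT and 1044, 1025 and 1025 CPM in AMPK-KO TAMs. The groups did not overlap, but the difference of 5.70% was small (log2 fold change -0.08, 95% interval -0.17 to -0.00045, adjusted p = 0.151). Fosb, a FOS paralogue whose splice form ΔFosB is long-lived, averaged 225 ± 10.1 CPM in WT and 217 ± 6.65 CPM in AMPK-KO TAMs (log2 fold change -0.06, 95% interval -0.17 to 0.06, adjusted p = 0.491). Junb, a JUN paralogue that can oppose JUN at some genes, averaged 879 ± 59.4 and 818 ± 16.7 CPM (log2 fold change -0.10, 95% interval -0.22 to 0.01, adjusted p = 0.206), with overlapping libraries. Junb passed the test only when WT replicate 1, the lowest WT library for this gene, was left out (log2 fold change -0.16, adjusted p = 0.0176).

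Jun and the antisense transcript Junos overlap by 689 bp on opposite strands. Junos had 146 to 207 counts in WT and 291 to 349 in AMPK-KO libraries, against 40671 or more for Jun, and it was higher in AMPK-KO TAMs (log2 fold change 0.74, adjusted p = 0.0281). How the counting treated strand is not given, so reads in this overlap cannot be told apart by gene, and the part of the overlap in the Jun difference was not tested.

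Egr2 and Nr4a1 moved the other way from Jun. Egr2, which in macrophages is known for its part in alternative activation and in resident identity, measured 39.9, 34.9 and 38.1 CPM in WT and 47.9, 51.1 and 48.7 CPM in AMPK-KO TAMs, a 1.31-fold rise without overlap (log2 fold change 0.39, SE 0.07, adjusted p = 0.00257). Nr4a1 encodes NUR77, an orphan nuclear receptor that restrains inflammatory gene expression in macrophages. It measured 139, 132 and 135 CPM in WT and 172, 157 and 176 CPM in AMPK-KO TAMs, a 1.24-fold rise, again without overlap (log2 fold change 0.31, SE 0.06, adjusted p = 0.0028). Egr1, a widely used reporter of this response, did not follow Egr2. It averaged 96.6 ± 2.88 CPM in WT and 88.8 ± 2.64 CPM in AMPK-KO TAMs, with all AMPK-KO libraries lower (log2 fold change -0.12, 95% interval -0.24 to -0.0065, adjusted p = 0.132). Ier2, a small nuclear protein, averaged 80.9 ± 9.89 and 81.6 ± 4.53 CPM (log2 fold change 0.01, 95% interval -0.18 to 0.20, adjusted p = 0.945).

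Of the feedback genes, Zfp36 fell and Dusp1 did not pass the test. Zfp36 measured 1025, 995 and 994 CPM in WT and 880.1, 830.2 and 902 CPM in AMPK-KO TAMs, a difference of 13.3% without overlap (log2 fold change -0.21, SE 0.04, adjusted p = 0.00691). Dusp1, a phosphatase that dephosphorylates p38, JNK and ERK, measured 1047, 1029 and 1028 CPM in WT and 1001, 1000.2 and 1009 CPM in AMPK-KO TAMs. These groups did not overlap, since both spreads were narrow, but the interval of the difference reached 0 (log2 fold change -0.04, 95% interval -0.13 to 0.04, adjusted p = 0.441). In all, 7 of the 10 genes had groups without overlap, 5 lower (Fos, Jun, Egr1, Dusp1 and Zfp36) and 2 higher, where 37.2% of all tested genes did (18.8% higher and 18.4% lower). That share covers genes of all levels. It was not computed for well-expressed genes alone, so the 2 shares are not matched for level. The summed level of the 10 genes was 5305 to 5349 CPM in WT and 4839.8 to 4957 CPM in AMPK-KO libraries.

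**Figure D2:**
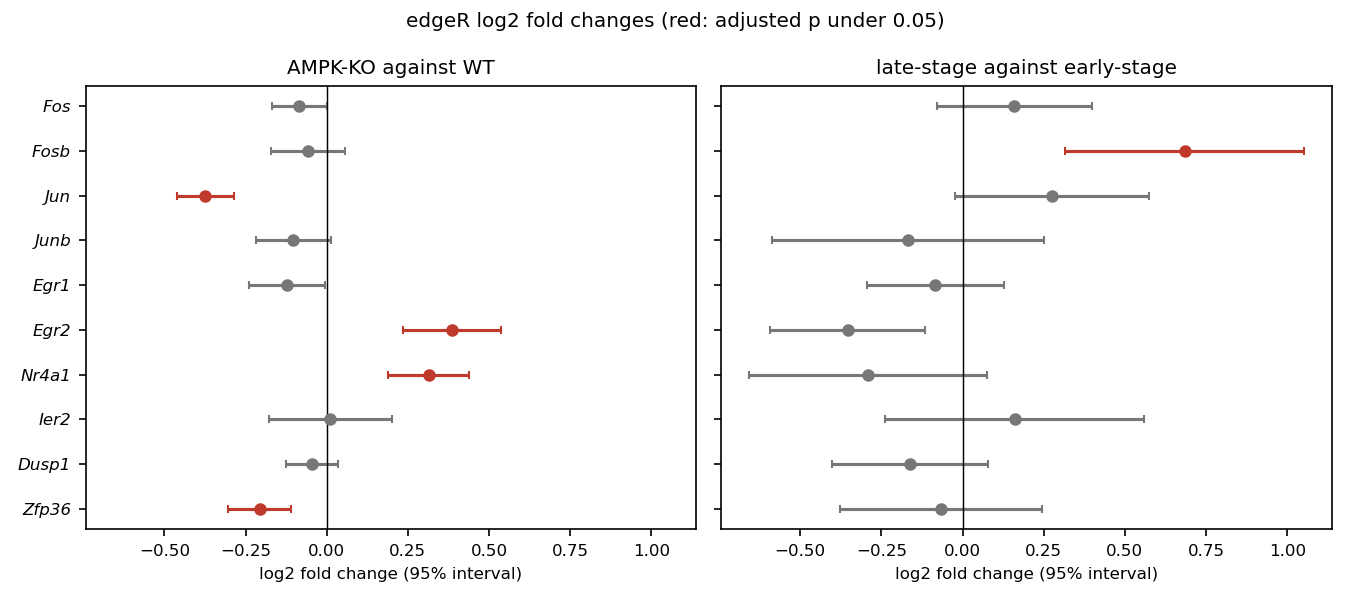
Log2 fold change of each immediate early gene (horizontal axes, with 95% interval) in AMPK-KO against WT TAMs (left) and late-stage against early-stage TAMs (right), n = 3 libraries per group; red marks an adjusted p under 0.05. Jun (-0.37) and Zfp36 (-0.21) are red below 0 and Egr2 (0.39) and Nr4a1 (0.31) above 0 on the left, and Fosb (0.68) alone is red on the right, where the intervals are wider.

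The second comparison asked how TAMs changed between day 8 and day 15 of tumor growth. Fosb rose in late-stage TAMs, and no other member passed the test. That is 1 of 10 higher and 0 lower, where 9.18% of 17630 genes passed (4.31% higher and 4.88% lower) and 15.5% of those above 50 CPM. Before adjustment, the p-value of edgeR was under 0.05 for 2 genes, Fosb and Egr2. DESeq2 called 1 gene lower, Egr2, and the log2 fold change of Fosb was under 1, a limit that 1.87% of genes exceeded together with the adjusted p. Groups did not overlap for 2 of the 10 genes, Fosb higher and Egr2 lower, against 31.2% of all tested genes (15.6% in each direction).

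Fosb measured 222, 209.6 and 137 CPM in early-stage and 347, 277 and 289.5 CPM in late-stage TAMs, a 1.61-fold rise (log2 fold change 0.68, SE 0.16, adjusted p = 0.0306). Every late-stage library was above every early-stage library. The call did not hold without any single late-stage library (adjusted p = 0.0706 to 0.133), without early-stage replicate 2 (adjusted p = 0.0824) or without the filter on low counts (adjusted p = 0.0997), while its direction held throughout (log2 fold change 0.50 to 0.82). Its paralogue Fos measured 1445, 1403 and 1063 CPM in early-stage and 1463, 1441 and 1464 CPM in late-stage TAMs, so that early-stage replicates 1 and 2 were near the late-stage level (log2 fold change 0.16, 95% interval -0.08 to 0.40, adjusted p = 0.404). Jun averaged 618 ± 116 CPM in early-stage and 748 ± 85.1 CPM in late-stage TAMs (log2 fold change 0.28, 95% interval -0.02 to 0.57, adjusted p = 0.24), and Junb 771 ± 237 and 686 ± 58.5 CPM (log2 fold change -0.17, 95% interval -0.59 to 0.25, adjusted p = 0.639). Junos was lower in late-stage TAMs, with 302 to 392 counts in early-stage and 112 to 199 in late-stage libraries (log2 fold change -1.01, adjusted p = 0.0319).

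Egr2 measured 50.05, 54.7 and 47.9 CPM in early-stage and 45.7, 35.6 and 38.2 CPM in late-stage TAMs. All late-stage libraries were lower, and the difference missed the threshold (log2 fold change -0.35, 95% interval -0.59 to -0.11, adjusted p = 0.0718) but passed it with DESeq2 (adjusted p = 0.0238). Nr4a1 measured 188, 161 and 109 CPM in early-stage and 134, 121 and 119 CPM in late-stage TAMs, where early-stage replicate 3 fell below all late-stage libraries (log2 fold change -0.29, 95% interval -0.66 to 0.08, adjusted p = 0.315). Egr1 averaged 99.9 ± 12.1 and 94.3 ± 3.64 CPM (log2 fold change -0.08, 95% interval -0.30 to 0.13, adjusted p = 0.644) and Ier2 75.9 ± 22.5 and 84.8 ± 3.17 CPM (log2 fold change 0.16, 95% interval -0.24 to 0.56, adjusted p = 0.638). Of the feedback genes, Dusp1 averaged 1026 ± 166 and 917 ± 9.92 CPM (log2 fold change -0.16, 95% interval -0.40 to 0.08, adjusted p = 0.398) and Zfp36 954 ± 215 and 912 ± 10.96 CPM (log2 fold change -0.07, 95% interval -0.38 to 0.25, adjusted p = 0.821).

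For the members other than Egr2, the width of these intervals came with early-stage replicate 3. The SE of Egr2 was 0.107 with that library and 0.110 without it. In that library all 10 genes were the lowest of their group. Their levels there were 67.9 to 94.2% of the group mean (median 77.4%), whereas 4205 genes above 50 CPM had a median of 100.6% in that library, and 5% and 95% quantiles of 81.7 and 117%. Early-stage replicate 1 was the highest of its group for 8 genes and late-stage replicate 1 for 8 genes, while in WT and AMPK-KO TAMs no gene left the range of 87.4 to 112% of its group mean. Coefficients of variation were accordingly 6.84 to 30.7% in early-stage, 0.898 to 13.2% in late-stage, 0.780 to 12.2% in WT and 0.460 to 6.10% in AMPK-KO TAMs. The same library was the lowest of its group for 10 of 10 other AP-1 and related genes and 20 of 24 feedback and early response genes, against 39% of all 17630 tested genes. It was also the lowest for 8 of 11 other immediate early transcription factors and 13 of 18 cytokine and inflammatory genes. Of 14 heat shock genes it was the lowest for 8 and the highest for 3. It was not low throughout: of 25 upstream kinases and transcription factors it was the lowest for 10 and the highest for 10. Of 10 macrophage markers it was the lowest for 4 and the highest for 4. Over replicates 1, 2 and 3 of the early-stage group, the AP-1 and related genes summed to 1503, 1336 and 1009.9 CPM. What set this library apart was not tested.

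**Figure D3:**
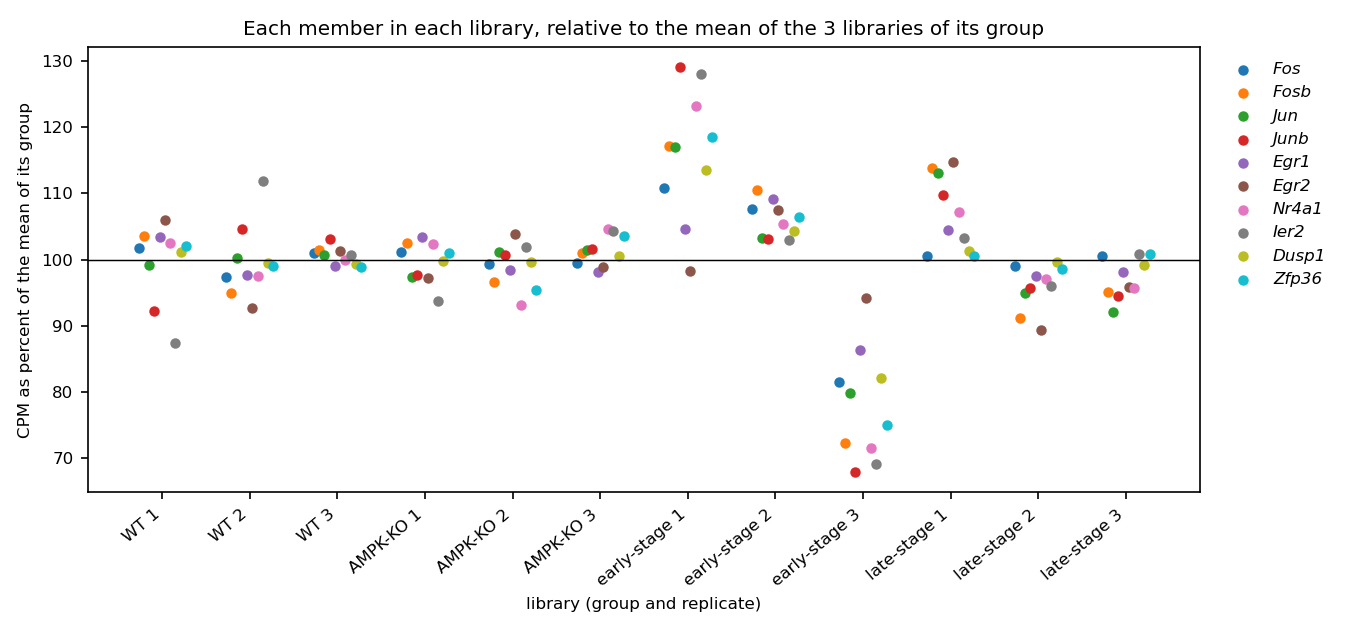
Level of each immediate early gene in each library as percent of the mean CPM of its group (vertical axis), by library (horizontal axis); each color is a gene and the horizontal line marks the group mean. All 10 points of early-stage replicate 3 lie below the line, between 67.9 and 94.2%, whereas the WT and AMPK-KO points stay between 87.4 and 112%.

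Leaving out early-stage replicate 3, singled out because all 10 genes were the lowest there, changed the count. Its removal raises the early-stage mean of each member by construction, whereas 39% of all tested genes were the lowest there. The shares of all genes given below are thus not a like background, and the calls are a description. Junb (log2 fold change -0.38, adjusted p = 0.042), Dusp1 (-0.29, adjusted p = 0.0152), Zfp36 (-0.24, adjusted p = 0.0432) and Nr4a1 (-0.48, adjusted p = 0.00682) then passed as lower in late-stage TAMs, 4 of 10 where 4.76% of 18359 genes did. Fosb still passed as higher (0.50, adjusted p = 0.0112), as 4.49% of genes did (9.25% in either direction), and Egr2 remained short of the threshold (-0.40, adjusted p = 0.0545). Groups without overlap rose to 7 of the 10 genes, against 40.4% of all genes. In this setting, Nr4a1 averaged 175 CPM there against 125 ± 7.67 CPM in late-stage TAMs, and Dusp1 1121 CPM against 919 ± 9.10 CPM.

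Ratios between related genes, chosen after the values were seen, cancel a shift shared by all members within a library and are given as a description. Jun per Junb was 0.896, 0.799 and 0.814 in WT and 0.690, 0.695 and 0.691 in AMPK-KO TAMs, and 0.726, 0.803 and 0.942 in early-stage and 1.12, 1.08 and 1.06 in late-stage TAMs. Fosb per Fos was 0.210, 0.201 and 0.207 in WT and 0.212, 0.204 and 0.213 in AMPK-KO TAMs, ranges that overlap, and it was 0.154, 0.149 and 0.129 in early-stage against 0.237, 0.193 and 0.198 in late-stage TAMs. Egr2 per Egr1 was 0.400, 0.370 and 0.399 in WT and 0.521, 0.585 and 0.559 in AMPK-KO TAMs, and 0.479, 0.502 and 0.556 in early-stage and 0.464, 0.387 and 0.413 in late-stage TAMs. All 3 ratios thus separated early-stage from late-stage libraries, with early-stage replicate 3 included, whereas only those of Jun and Egr2 separated WT from AMPK-KO libraries.

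**Figure D4:**
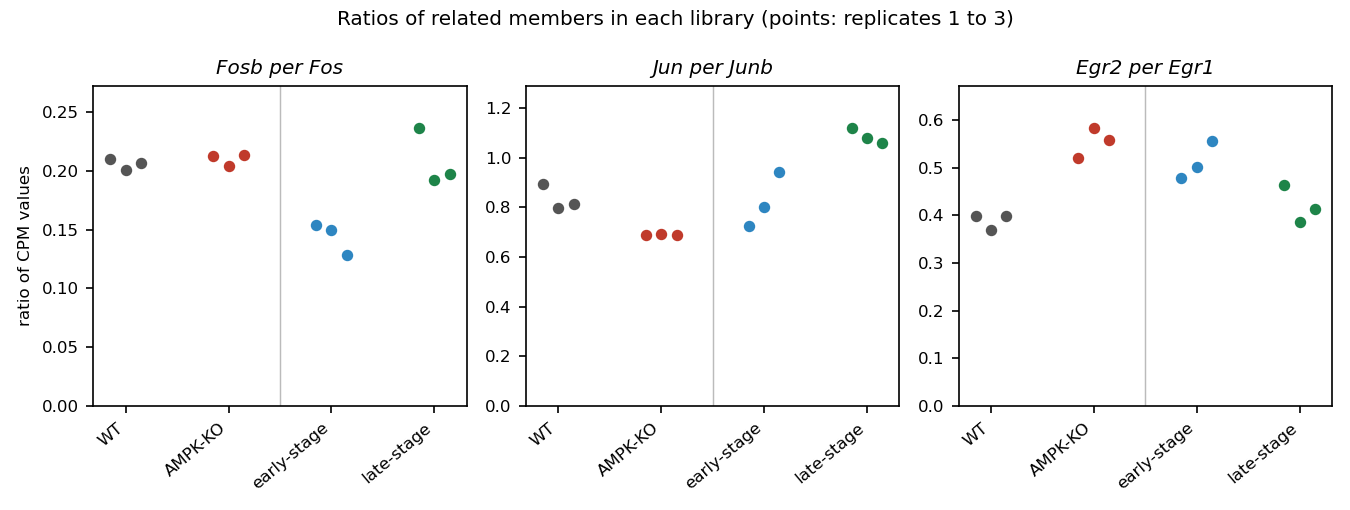
Ratio of TMM-scaled CPM of Fosb to Fos, Jun to Junb and Egr2 to Egr1 (vertical axes, from 0) in each library by group (horizontal axes), with a point for each of 3 replicates. Jun per Junb is 0.690 to 0.695 in AMPK-KO and 0.799 to 0.896 in WT TAMs, and Fosb per Fos is 0.129 to 0.154 in early-stage and 0.193 to 0.237 in late-stage TAMs.

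Related genes, in lists written with earlier results of these data known, show how the wider response stood. For these lists and the cell type markers below, the shares over all tested genes are the background. In AMPK-KO TAMs 11.3% rose and 9.78% fell, and in late-stage TAMs 4.31% rose and 4.88% fell. Among genes above 50 CPM, 38.8% and 15.5% passed in either direction. Of 10 other AP-1 and related bZIP genes, 3 rose and 3 fell in AMPK-KO TAMs (median log2 fold change 0.02, against -0.0037 over all tested genes). Batf3, known from the development of cross-presenting dendritic cells, was at 14.9 ± 1.62 CPM in WT and rose to 32.3 ± 2.49 CPM in AMPK-KO TAMs (log2 fold change 1.12, adjusted p = 2.72e-05), Fosl2, encoding the FRA2 subunit, rose from 165 ± 13.9 to 211 ± 7.64 CPM (0.35, adjusted p = 0.00301), and Atf3, a stress-induced repressor, fell from 578 ± 26.1 to 469 ± 7.28 CPM (-0.30, adjusted p = 0.001). Mafg, a small MAF partner of NRF2, fell as well (-0.47, adjusted p = 0.000105). In late-stage TAMs 0 of these 10 genes passed in either direction by edgeR, with 2 of them (Batf3 higher, Fosl2 lower) under 0.05 before adjustment.

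In the lists that follow, the first value in parentheses after a gene is its log2 fold change. Of 11 other immediate early transcription factors tested, 3 rose and 2 fell in AMPK-KO TAMs (median log2 fold change 0.12). The NR4A paralogues of Nr4a1 were both higher, Nr4a2 at 11.04 ± 0.990 CPM in WT and 22.0 ± 1.51 CPM in AMPK-KO TAMs (log2 fold change 0.99, adjusted p = 6.73e-05) and Nr4a3 at 32.4 ± 2.72 and 39.8 ± 1.95 CPM (0.30, adjusted p = 0.0217), a call lost in 4 of 12 alternatives (without WT replicate 2 or 3 or AMPK-KO replicate 1 or 2, adjusted p up to 0.105). Csrnp1, a nuclear factor, was also higher (0.27, adjusted p = 0.00284), and Myc, the growth regulator, fell from 58.5 ± 0.949 to 36.8 ± 0.854 CPM (-0.67, adjusted p = 1.92e-05). In late-stage TAMs 1 rose and 1 fell. Myc rose from 45.9 ± 6.66 to 74.6 ± 2.77 CPM (0.70, adjusted p = 0.00338), and Nr4a3 fell from 43.9 ± 1.99 to 29.4 ± 1.78 CPM (-0.58, adjusted p = 0.00323).

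Of 24 other feedback and early response genes, 5 rose and 10 fell in AMPK-KO TAMs (median log2 fold change -0.11). Btg2, an antiproliferative gene, rose from 99.3 ± 3.16 to 166 ± 2.15 CPM (0.74, adjusted p = 3.31e-06), while Rhob, encoding a small GTPase (-0.54, adjusted p = 1.12e-05), Dusp6, the ERK phosphatase (-0.45, adjusted p = 9.29e-05), and Sgk1, a serum-induced kinase (-0.41, adjusted p = 0.000294), fell. In late-stage TAMs 0 rose and 3 fell, namely Zfp36l1, a relative of Zfp36 (-0.47, adjusted p = 0.00349), Dusp6 (-0.47, adjusted p = 0.00398) and Spry2, a brake on receptor tyrosine kinases (-0.77, adjusted p = 0.00417), and without early-stage replicate 3 the counts were 2 and 5. Of 25 upstream kinases and transcription factors, 8 rose and 2 fell in AMPK-KO TAMs. Rps6ka1, encoding the ERK-activated kinase RSK1 (0.37, adjusted p = 0.000218), Rps6ka4, encoding the kinase MSK2 (0.37, adjusted p = 0.000934), and Mapk9, encoding JNK2 (0.38, adjusted p = 0.00245), were higher, and Mapk3, encoding ERK1 (-0.27, adjusted p = 0.00193), was lower. In late-stage TAMs Rps6ka1 rose (0.31, adjusted p = 0.0251) and Crem, a relative of CREB, fell (-0.44, adjusted p = 0.03). Each of these calls was lost in 6 of 12 alternatives, namely with the replicate number as a block (adjusted p = 0.053 for Rps6ka1 and 0.0547 for Crem), without the filter on low counts, and without early-stage replicate 2 or any single late-stage library (adjusted p up to 0.134 and 0.144).

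Of 18 early response cytokine and inflammatory genes, 5 rose and 7 fell in AMPK-KO TAMs. Il1b, the interleukin-1β gene, rose from 288 ± 8.70 to 595 ± 14.8 CPM (1.05, adjusted p = 2.56e-07), whereas the chemokine genes Cxcl1 (-1.34, adjusted p = 5.33e-06), Ccl2 (-0.86, adjusted p = 1.2e-05) and Ccl3 (-0.78, adjusted p = 6.64e-05) fell. In late-stage TAMs 0 rose and 5 fell, among them Il1b from 224 ± 31.2 to 103 ± 9.68 CPM (-1.12, adjusted p = 0.000337), Ccl7 (-0.56, adjusted p = 0.000794), Ptgs2, the inducible cyclooxygenase gene (-0.55, adjusted p = 0.0029), and Il1a (-0.67, adjusted p = 0.017), whose call was lost in 3 of 12 alternatives (without early-stage replicate 2 or late-stage replicate 2 or 3, adjusted p up to 0.0892). Without early-stage replicate 3, 7 fell.

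Heat shock genes, which dissociation at warm temperature is known to induce together with immediate early genes, were measured beside them. In AMPK-KO TAMs 12 of 14 fell and 0 rose by edgeR (median log2 fold change -0.36), where 9.78% of all tested genes fell and 11.3% rose. Their summed level was 9396 to 9595 CPM in WT and 7524 to 7706 CPM in AMPK-KO libraries. Hsph1 (-0.83, adjusted p = 1.36e-06), Hsp90aa1 (-0.46, adjusted p = 2.25e-05), Hspd1 (-0.47, adjusted p = 6.94e-05) and Hspb1 (-1.04, adjusted p = 0.000101) were among them. In late-stage TAMs 1 of 14 rose and 1 fell, Hspa1b from 889.7 ± 279.8 to 1518 ± 127 CPM (0.77, adjusted p = 0.0392) and Dnaja1 from 247 ± 13.3 to 188 ± 5.57 CPM (-0.40, adjusted p = 0.00748), and the counts were 2 and 2 without early-stage replicate 3. The Hspa1b call was lost in 5 of 12 alternatives (without any single late-stage library, early-stage replicate 2 or the filter on low counts, adjusted p up to 0.149), and the Dnaja1 call in 2 (without replicate 2 of either group, adjusted p up to 0.066). Hspa1b has a near-identical copy, Hspa1a, in the same list, so that reads may be split between the copies and the 2 are not separate evidence. Both were among the genes that fell in AMPK-KO TAMs (Hspa1a -0.31, adjusted p = 0.000158, and Hspa1b -0.25, adjusted p = 0.00185). In late-stage TAMs Hspa1a missed the threshold (0.69, adjusted p = 0.0599). Whether the tissue handling differed between groups was not tested.

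**Figure D5:**
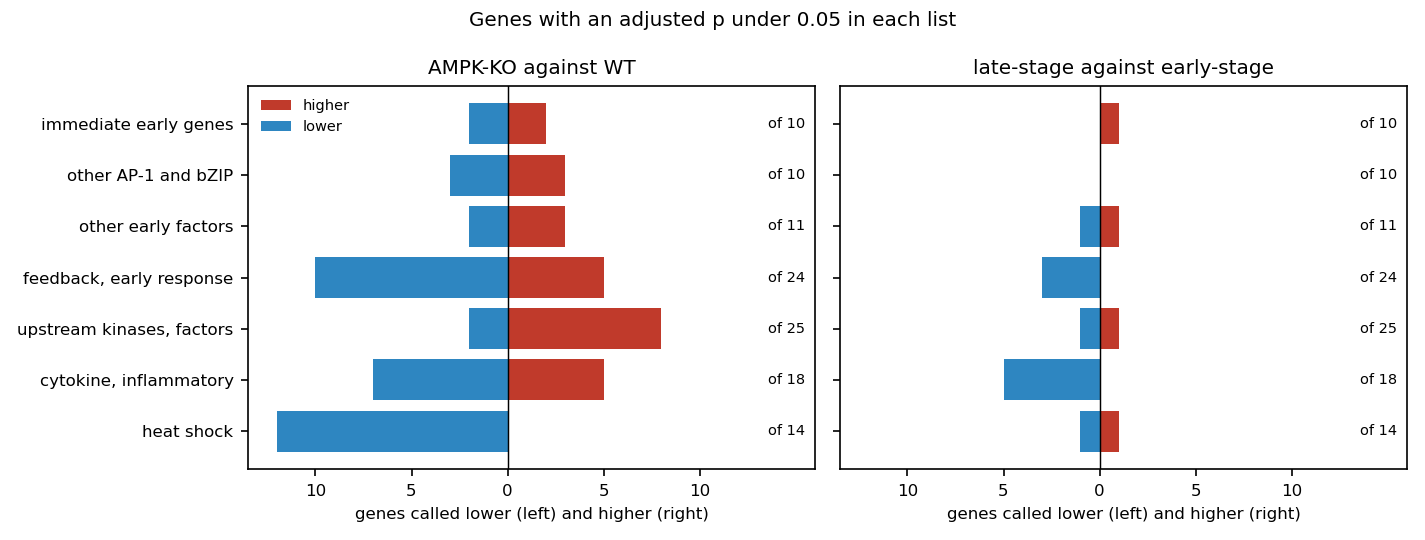
Number of genes called lower (bars to the left) and higher (bars to the right) at an adjusted p under 0.05 in each list (vertical axis), for AMPK-KO against WT TAMs (left) and late-stage against early-stage TAMs (right), n = 3 libraries per group; the labels at the right edge give the genes tested. In AMPK-KO TAMs 12 of 14 heat shock genes are lower and none is higher, against 2 and 2 of the 10 immediate early genes.

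Transcripts of other cells in the sort moved with both comparisons, and bulk libraries cannot tell fewer cells of a type from less RNA per cell. In AMPK-KO libraries, 8 of 9 T cell markers were higher (summed level 103 to 121 CPM in WT, 199 to 204 CPM in AMPK-KO), as were 7 of 7 NK cell markers (38.7 to 43.9 and 93.5 to 97.9 CPM), 6 of 7 dendritic cell markers (80.7 to 91.1 and 125 to 132 CPM), 6 of 6 fibroblast markers (569.99 to 617 and 741 to 822 CPM) and 4 of the 7 neutrophil markers that passed the filter, out of 10 (112 to 119 and 184 to 186 CPM, with Ly6g and Ngp at 0). Most of the neutrophil sum was Csf3r, which averaged 96.5 CPM in WT and 154 CPM in AMPK-KO. Mmp8 averaged 16.7 and 24.3 CPM, S100a8 1.05 and 2.10 CPM and S100a9 0.697 and 2.47 CPM. Retnlg, Cxcr2 and Ltf averaged 0.744 CPM or less in both groups. Of 6 basophil and mast cell markers only 2 passed the filter, both higher, with Ms4a2 at 0. Endothelial markers were higher for 2 and lower for 1 of 5 tested, and B cell markers higher for 1 and lower for 4 of 6. B16 melanoma markers were lower for 7 of 8 (1037 to 1039.9 and 703 to 744 CPM), and macrophage markers were split, 2 of 10 up and 2 down (13940 to 15157 and 13578 to 13793 CPM). In late-stage libraries, 6 of 8 melanoma markers (1732 to 1886 CPM in early-stage, 795 to 1255 CPM in late-stage), 5 of 7 NK cell markers (97.1 to 111 and 44.3 to 60.1 CPM) and 3 of 6 fibroblast markers (801 to 878 and 393 to 555 CPM) were lower, 3 of 9 T cell and 3 of 6 B cell markers were higher, and macrophage markers summed to 10691 to 12741 and 13176 to 13282 CPM, with 1 of 10 higher and 1 lower. All of these cell types can express immediate early genes, and their part in the differences above was not tested.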

How the data were processed

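RNA-seq was measured in 12 TAM libraries (4 groups of 3). The authors mapped reads with HISAT2 and counted them per gene with featureCounts, and they deposited raw counts in 1 table for AMPK-KO and WT and 1 for early- and late-stage TAMs. Tool versions, strand and multi-mapping settings are not given in the sources used here. The methods write GRCh38, whereas the processing notes name mm10 and GRCm38. Of 55401 identifiers, 54349 matched GENCODE M21 (GRCm38) with their version, among them 8 of the 10 members, and coordinates are given only for those, although lengths of Junb and Ier2 were taken by identifier without version.

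Each table was fitted on its own with edgeR 4.0.16 (filterByExpr, TMM, quasi-likelihood test, no covariate) in R 4.3.3, with Benjamini-Hochberg adjustment over all genes tested. Intervals are 95% and unadjusted. CPM values are TMM-scaled, CPM per kb divides by the length of all exons, and each member had 2520 or more counts in every library. The scripts were tested on simulated data. Alternatives were RLE factors, library totals alone, DESeq2 1.42.0, other filters, leaving out each library in turn, and a fit with the replicate number as a block. Promoter sequences come from RefSeq (GRCm38.p6), and 3′UTRs from basic protein-coding transcripts of GENCODE M21. Figures used matplotlib 3.10.9 and tables pandas 2.3.3.

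The members, gene lists and tests were chosen with earlier results of these data known. The genes named are the members, up to 4 genes of each related list with the smallest adjusted p among those called in each comparison, and the 5 genes nearest to the mean member profile. Junos, Ergic1, Hspa1a, the neutrophil markers and the marker genes at 0 were named after their values were seen.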

Additional observations from a re-analysis of the deposited data

How the results depend on the processing

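Every call of a member in AMPK-KO against WT TAMs held in all 12 alternatives, with a largest adjusted p of 0.00174 for Jun, 0.044 for Zfp36, 0.0213 for Egr2 and 0.0232 for Nr4a1. Leaving out 1 library gave 2 members higher and 2 to 3 lower, and Ier2 changed sign (log2 fold change -0.0777 to 0.10). In late-stage against early-stage TAMs, leaving out 1 library gave 0 to 1 member higher and 0 to 4 lower, 7 members without overlap in the setting without early-stage replicate 3, and sign changes for Junb (-0.38 to 0.0620), Zfp36 (-0.24 to 0.0778) and Ier2 (-0.0486 to 0.38). DESeq2 called 1 member lower, no filter left 0 higher, and library totals alone gave 1 feedback gene and 2 upstream genes higher. The setting without early-stage replicate 3, added after the data were seen, gave 1 AP-1 gene lower, 2 feedback genes higher and 5 lower, and 2 heat shock genes higher and 2 lower. Of the named genes called, 27 of 28 (AMPK-KO, the exception being Nr4a3) and 8 of 14 (late-stage, the exceptions being Fosb, Rps6ka1, Crem, Hspa1b, Dnaja1 and Il1a) held in every alternative, and 0 reversed.

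Genes called over the whole table numbered 3693 in AMPK-KO against WT (2414 to 4039 with 1 library left out) and 1619 in late-stage against early-stage TAMs (653 to 2835 with 1 library left out, 936 without a filter, 2447 with DESeq2). Another scaling moved the median of all genes by 0.028 or less. Libraries with the same replicate number had correlations of deviations of -0.0039 to 0.0423 in AMPK-KO and WT and 0.0132 to 0.0255 in the stage table. Libraries with different numbers had -0.0481 to 0.0472 and -0.0611 to 0.0413. No signal shared by replicate number was thus seen, but such values cannot show whether the libraries were paired by design. With the replicate number as a block, the member counts were 2 higher and 2 lower in AMPK-KO and 1 higher and 0 lower in late-stage TAMs (Fosb log2 fold change 0.71, adjusted p = 0.0111), all-gene calls were 3862 and 1417, and the late-stage calls of Rps6ka1 (adjusted p = 0.053) and Crem (0.0547) were lost. Each member had 2520 or more counts in every library, so that the spread between 3 libraries, with coefficients of variation up to 30.7% in early-stage TAMs, limits these comparisons more than counting error does.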

Other observations

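Among 16812 genes tested in both tables, the 5 whose log2 CPM, centred within each table, lay closest to the mean profile of the 10 immediate early genes over the 12 libraries were Syvn1, which encodes a ubiquitin ligase of the endoplasmic reticulum (root mean square difference 0.0471), Zbtb24 (0.0491), the kinase gene Pim1 (0.0530), Prr14 (0.0530) and Asb6 (0.0564). Of the members themselves, Fos lay nearest to that mean (0.0688, rank 17), followed by Dusp1 (0.0767), Zfp36 (0.0811) and Egr1 (0.0866), whereas Egr2 (0.237, rank 7611) and Fosb (0.245, rank 7983) lay far from it. These are descriptions over libraries that share early-stage replicate 3.

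Dusp1 overlaps the gene Ergic1, on the opposite strand, by 640 bp. Ergic1 had 5739 to 7135 counts in WT and 5219 to 6235 in AMPK-KO libraries (log2 fold change -0.17, adjusted p = 0.0705), and 7098 to 7300 in early-stage and 8329 to 8774 in late-stage libraries (0.22, adjusted p = 0.0715), against 69680 or more for Dusp1.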
